A study of Penicillium oxalicum with 12 samples.

Results

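The strain gCXC, which expresses a chimeric transcription factor named CXC, was compared with the strain gXlnRC, which expresses the regulator XlnR with the substitution A871V, in the filamentous fungus Penicillium oxalicum. Of the 9979 genes in the deposited table, 8898 had at least 1 FPKM (fragments per kilobase of gene length, scaled to library size) in at least 3 of the 6 libraries of these strains and were tested. The other groups of the series were the wild type 114-2 (WT), given here for its levels, and gAraRC, which expresses AraR with the substitution A731V and enters only the shared estimate of the spread. Each group had 3 libraries, described in the design text as biological replicates. All strains grew for 24 h with 2% glucose and then for 4 h without a carbon source, at 30 °C and 200 rpm, so no group received cellulose or xylan. The labels do not say which proteins CXC was joined from, which promoter drives either factor, whether the native gene is still present or whether a strain is 1 transformant.

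Fungi that live on plant matter secrete cellulases and xylanases, and transcription factors of the zinc cluster type switch the genes on when breakdown products of the polymers are sensed. XlnR is the activator of xylanase genes in Aspergillus and Penicillium, and ClrB is an activator of cellulase genes. In Trichoderma reesei, an alanine to valine change in the XlnR ortholog Xyr1 is known to make enzyme production less dependent on an inducer. CreA represses such genes while glucose is present.

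The deposited table gives genes as PDE locus tags without names, and 0 of its 9979 tags could be found in the RefSeq gene table of the assembly ASM172317v3. The names used below for 15 tags rest on published knowledge of this fungus and could not be checked against a sequence here. One further tag of the fixed lists, PDE_05633, is given by its tag because its name was not certain. The lists were settled after tag values had been seen. Their counts are set beside those of all genes only as a description. Other genes are given by tag only where they were among the most extreme.

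Library totals recovered from the FPKM values were 16021728 to 18561022 reads in gCXC, 16856553 to 20092360 in gXlnRC and 14685371 to 19446399 in WT. Across the tested genes, Spearman correlations were 0.995 to 0.997 between libraries of the same strain, gCXC or gXlnRC. They were 0.948 to 0.952 between a gCXC and a gXlnRC library, and WT was not part of them. The root mean square deviation from the group mean, on the log2 scale, was 0.164, 0.123 and 0.193 in the WT libraries. It was 0.112 to 0.127 in gCXC and 0.113 to 0.135 in gXlnRC. Standard errors (SE) of the log2 changes had a median of 0.09. Each log2 change is a difference of log2(FPKM + 1), so low genes appear to change less than their FPKM ratio, and each p is from limma with Benjamini-Hochberg adjustment over the 8898 genes. Called genes are those with an adjusted p under 0.05.

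The gene of XlnR, whose variant gXlnRC expresses, was examined first. XlnR (PDE_07674) had 248, 248 and 247 FPKM in gCXC, 76.5, 90.0 and 75.04 FPKM in gXlnRC, and 14.7, 15.3 and 15.6 FPKM in WT. The 3 groups did not overlap, with gCXC highest and WT lowest. The XlnR level was 3.08 times as high in gCXC as in gXlnRC (log2 change 1.61 ± 0.06 SE, adjusted p = 1.29e-09), and it was 16.3 times the WT level in gCXC (adjusted p = 3.47e-13) and 5.30 times in gXlnRC (adjusted p = 3.49e-11, limma). Reads from an introduced sequence and from the native gene are counted together in this value and cannot be told apart. The labels do not say how much of XlnR, if any, CXC holds. As FPKM were scaled to a length of 2964 nt, the ratio between the strains may not compare like with like.

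The cellulase genes were higher in gCXC than in gXlnRC. Cel7A-2 (PDE_07945), the main cellobiohydrolase, which cuts cellobiose from cellulose chain ends, had 12753, 12263 and 12334 FPKM in gCXC, 797, 832 and 851 FPKM in gXlnRC, and 67.3, 68.5 and 80.9 FPKM in WT. It was the 9th most abundant gene of gCXC by mean FPKM, and gXlnRC stood between gCXC and WT with no overlap. The gCXC mean was 15.1 times the gXlnRC mean, a log2 change of 3.91 ± 0.10 (SE, limma, adjusted p = 1.87e-11).

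Cel6A (PDE_07124), a cellobiohydrolase that works from the other chain end, had 9243, 8639 and 8486 FPKM in gCXC. It had 15.5, 16.5 and 17.5 FPKM in gXlnRC and 11.9, 11.2 and 11.6 FPKM in WT. Only the gCXC libraries carried a high Cel6A level among these 9, and the means of gCXC and gXlnRC differed 532-fold (log2 change 8.97 ± 0.08 SE, limma, adjusted p = 1.36e-15). Against WT, Cel6A was 1.43 times as high in gXlnRC (adjusted p = 0.00041, limma). Cel5B (PDE_09226), an endoglucanase, which cuts within cellulose chains, had 1037, 979 and 994 FPKM in gCXC. It had 14.1, 13.6 and 12.0 FPKM in gXlnRC, against 16.3, 13.1 and 16.8 FPKM in WT. The gXlnRC and WT libraries overlapped for Cel5B, and that difference did not pass the test (adjusted p = 0.0873, limma), whereas gCXC exceeded gXlnRC with a log2 change of 6.14 ± 0.09 (SE, adjusted p = 8.4e-14).

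The endoglucanase gene Cel7B (PDE_07929) showed a smaller gap between the strains. It had 680, 620 and 678 FPKM in gCXC, 182, 204 and 191 FPKM in gXlnRC, and 16.9, 16.4 and 20.5 FPKM in WT. The gCXC mean was 3.43 times that of gXlnRC (log2 change 1.77 ± 0.11 SE, limma, adjusted p = 9.39e-08). Against WT, Cel7A-2 was 172 times as high in gCXC (adjusted p = 9.01e-14) and 11.4 times as high in gXlnRC (adjusted p = 4.53e-11, limma). Cel7B was 36.8 times as high as in WT in gCXC (adjusted p = 5.94e-12) and 10.7 times in gXlnRC (adjusted p = 2.24e-10, limma). PDE_05633 had 2.37, 1.83 and 1.73 FPKM in gCXC and 0.554, 0.474 and 0.265 FPKM in gXlnRC, from 21 to 33 and 4 to 7 reads. It entered the test only through its gCXC values, so it is left out of the count. The other 4 of the 5 genes of the list were all called higher, with a median log2 change of 5.03, where 37.0% of all tested genes were called higher and the median log2 change was 0.09.

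Cel7A-2, Cel6A, Cel7B and Cel5B together held 3.61%, 3.43% and 3.43% of the reads counted in genes in the gCXC libraries. The same genes held 0.161%, 0.170% and 0.171% in the gXlnRC libraries and 0.0168% to 0.0199% in the WT libraries.

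The xylanase gene went the other way. Xyn10A (PDE_08094), the major endoxylanase, had 877, 855 and 991 FPKM in gCXC, 8474, 8163 and 8429 FPKM in gXlnRC, and 3.06, 4.46 and 2.98 FPKM in WT. It was the 12th most abundant gene of gXlnRC by mean FPKM and the 150th of gCXC, and the 3 groups did not overlap. Xyn10A was lower in gCXC than in gXlnRC by a log2 change of -3.20 ± 0.13 (SE, limma, adjusted p = 1.34e-09), where 22.8% of all tested genes were called lower. Both strains were above WT for Xyn10A, with ratios of the means of 259 in gCXC (adjusted p = 4.06e-13) and 2385 in gXlnRC (adjusted p = 7.15e-15, limma). In gCXC its mean level, 907 ± 72.9 FPKM, was below that of Cel7A-2 (12450.1 ± 265 FPKM), and in gXlnRC its mean of 8355 ± 168 FPKM was above that of Cel7A-2 (826.9 ± 27.5 FPKM; SD, n = 3 each).

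**Figure D1:**
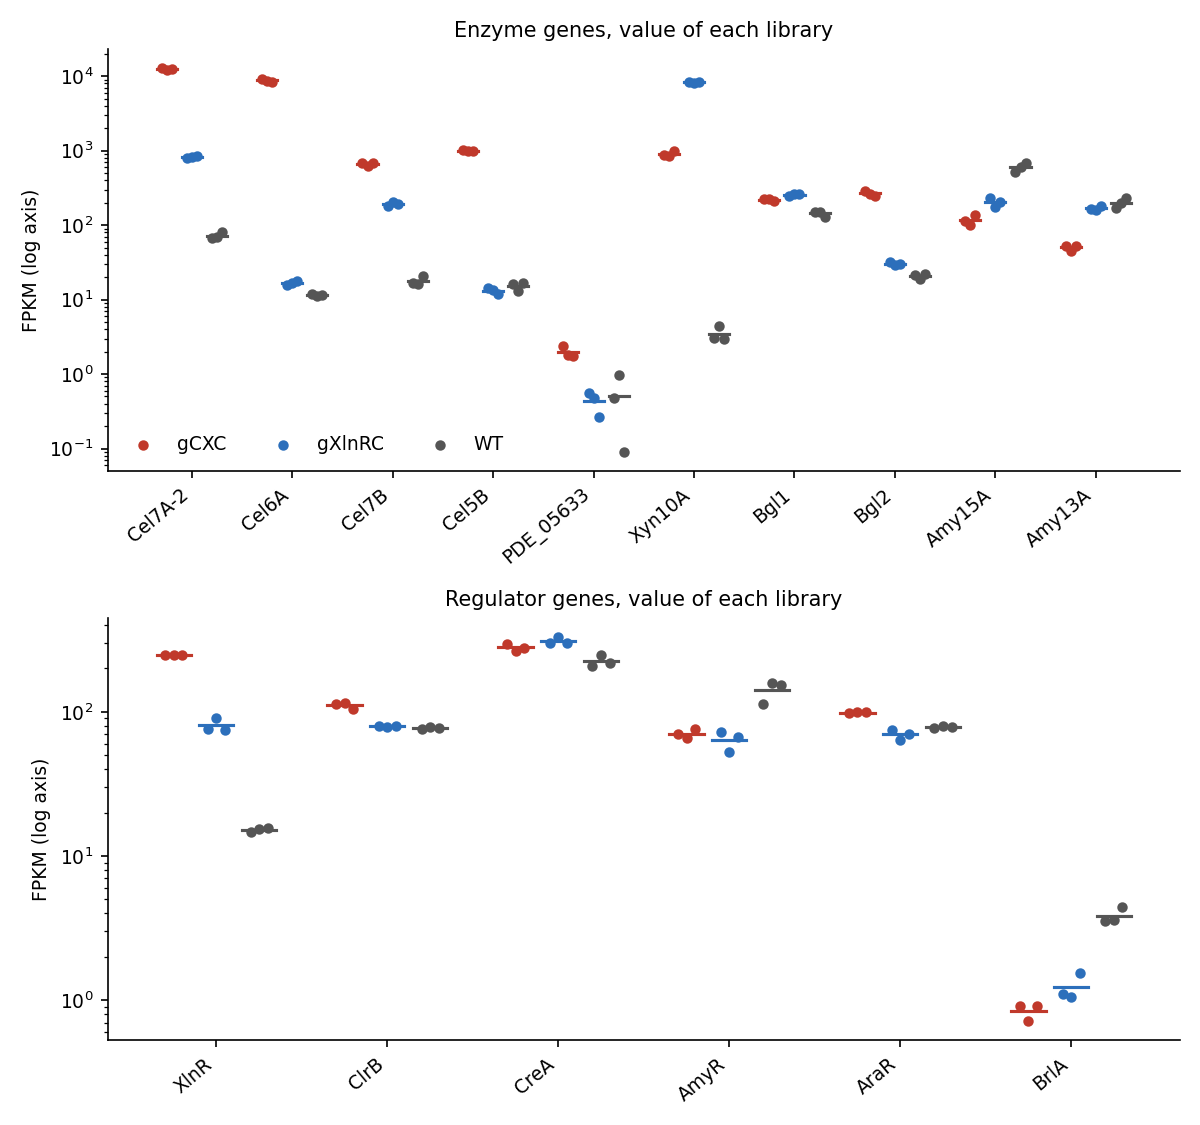
FPKM of the genes of the fixed lists in each gCXC, gXlnRC and WT library (log axis; points are libraries, lines are means of 3). Cel6A and Cel5B lie between 11.2 and 17.5 FPKM in gXlnRC and WT and at 979 FPKM or more in gCXC, while Xyn10A is highest in gXlnRC, and AmyR is the gene of these whose gCXC and gXlnRC libraries overlap.

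The beta-glucosidase genes differed from each other. Bgl1 (PDE_02736), the main secreted beta-glucosidase, which splits cellobiose to glucose, had 222, 224 and 214 FPKM in gCXC, 244, 264 and 264 FPKM in gXlnRC, and 150, 151 and 130 FPKM in WT. The gCXC mean was 0.855 times the gXlnRC mean (log2 change -0.22 ± 0.08 SE, limma, adjusted p = 0.0365). This call was lost when any 1 of the gCXC libraries or gXlnRC replicate 2 or 3 was left out (adjusted p 0.0635 to 0.1, limma, and 0.000876 to 0.1 over all alternatives). Bgl2 (PDE_00579), an intracellular beta-glucosidase, had 287, 264 and 250 FPKM in gCXC, 31.9, 29.4 and 29.8 FPKM in gXlnRC, and 21.2, 18.8 and 22.0 FPKM in WT. Its gCXC libraries stood alone at the high level, at 8.79 times the gXlnRC mean (log2 change 3.09 ± 0.07 SE, limma, adjusted p = 4.39e-12). Against WT, Bgl2 was 12.9 times as high in gCXC (adjusted p = 1.14e-12) and 1.47 times in gXlnRC (adjusted p = 3.36e-05, limma). Bgl1 was above WT by log2 changes of 0.62 in gCXC (adjusted p = 8.3e-05) and 0.84 in gXlnRC (adjusted p = 4.37e-06, limma).

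Transcripts of the 2 amylase genes examined were lower in gCXC than in gXlnRC. Amy15A (PDE_09417), a glucoamylase, had 115, 100 and 136 FPKM in gCXC, 231, 176 and 205 FPKM in gXlnRC, and 518, 598 and 679 FPKM in WT. Both strains were below WT for Amy15A, by -2.34 ± 0.24 in gCXC and -1.55 ± 0.24 in gXlnRC (log2 change ± SE, adjusted p = 6.76e-06 and 0.000145), and gCXC was below gXlnRC (log2 change -0.80 ± 0.24 SE, limma, adjusted p = 0.0115). Amy13A (PDE_01201), an alpha-amylase, had 51.8, 45.7 and 53.1 FPKM in gCXC, 166, 158 and 179 FPKM in gXlnRC, and 171, 196 and 229 FPKM in WT. The gXlnRC and WT libraries overlapped for Amy13A and did not differ by the test (adjusted p = 0.123, limma), and gCXC was lower than gXlnRC by -1.72 ± 0.12 on the log2 scale (SE, limma, adjusted p = 2.6e-07).

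AmyR (PDE_03964), the activator of amylase genes, did not follow Amy15A and Amy13A between the strains. It had 70.2, 65.6 and 75.6 FPKM in gCXC and 72.8, 52.7 and 67.1 FPKM in gXlnRC, against 114, 158 and 153 FPKM in WT. The gCXC and gXlnRC libraries overlapped, and the log2 change was 0.14 ± 0.14 (SE, limma, adjusted p = 0.41). Both strains were below WT for AmyR, by -0.98 ± 0.14 in gCXC (adjusted p = 0.000132) and -1.12 ± 0.14 in gXlnRC (adjusted p = 3.27e-05) on the log2 scale of limma.

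ClrB (PDE_05999) had 114, 115 and 104 FPKM in gCXC, 79.4, 78.9 and 79.3 FPKM in gXlnRC, and 75.8, 78.6 and 77.7 FPKM in WT. The ClrB level was 1.40 times as high in gCXC as in gXlnRC (log2 change 0.48 ± 0.06 SE, limma, adjusted p = 2.22e-05), and gXlnRC did not differ from WT by the test (adjusted p = 0.653). As for XlnR, an introduced sequence cannot be told apart from the native gene. AraR (PDE_04461), a regulator of arabinose use, had 97.5, 99.1 and 99.4 FPKM in gCXC, 74.3, 64.3 and 70.5 FPKM in gXlnRC, and 77.4, 79.7 and 78.4 FPKM in WT (log2 change between the strains 0.50 ± 0.06 SE, limma, adjusted p = 3.44e-05). Against WT, AraR was higher in gCXC by 0.33 ± 0.06 (adjusted p = 0.00122) and lower in gXlnRC by -0.17 ± 0.06 (log2 change ± SE, limma, adjusted p = 0.0392).

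CreA (PDE_03168) had 298, 266 and 277 FPKM in gCXC, 298, 328 and 300 FPKM in gXlnRC, and 208, 249 and 219 FPKM in WT. The highest gCXC and lowest gXlnRC values of CreA were equal when rounded, and the strains did not differ by the test (log2 change -0.14 ± 0.08 SE, limma, adjusted p = 0.135). It passed the test with median-of-ratios scaling and with quantile normalization (adjusted p = 0.0269 and 0.00773, in a range of 0.00773 to 0.363 over all alternatives). CreA was above WT in both strains, by log2 changes of 0.31 in gCXC (adjusted p = 0.00491) and 0.45 in gXlnRC (adjusted p = 0.000344, limma). BrlA (PDE_00087), the activator of spore formation, was near the detection limit, with 0.915, 0.722 and 0.908 FPKM in gCXC, 1.10, 1.05 and 1.54 FPKM in gXlnRC, and 3.52, 3.61 and 4.47 FPKM in WT. BrlA rested on 15 to 22 reads per gCXC library and 23 to 40 per gXlnRC library, and the strains did not differ by the test (adjusted p = 0.137, limma). With 76 to 91 reads per WT library, BrlA was below WT by -1.39 in gCXC (adjusted p = 9.82e-06) and -1.13 in gXlnRC (log2 change, limma, adjusted p = 3.98e-05). Of the 5 regulators other than BrlA, 3 (XlnR, ClrB and AraR) were called higher in gCXC, 0 lower, and 2 (CreA and AmyR) did not pass the test, where 37.0% of all tested genes were called higher and 22.8% lower. In this count and the next ones, the values of XlnR and ClrB may hold reads of an introduced sequence. Of the 16 genes of the fixed lists, 14 did not enter the test through 1 strain alone, PDE_05633 and BrlA being the others. Of these 14, 8 were called higher and 4 lower, against the same shares of 37.0% and 22.8%, with a median log2 change of 0.49 beside 0.09 over all genes. Their gCXC and gXlnRC libraries did not overlap for 8 higher and 5 lower genes, where this held for 41.9% of all tested genes in the higher and 26.9% in the lower direction. As the lists were settled with values known, these shares do not test the lists.

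Both strains were compared with the same 3 WT libraries, so their changes against WT share that source. Of the same 14 genes, 11 were called higher and 3 lower in gCXC against WT, where 24.4% of all tested genes were called higher and 26.4% lower (50.8% in all). In gXlnRC against WT, 8 were called higher and 3 lower, where the shares of all tested genes were 19.6% and 35.7% (55.2% in all). The 11 genes of gCXC include XlnR and ClrB, whose values may hold reads of an introduced sequence. The 8 genes of gXlnRC include XlnR, the gene whose variant this strain expresses.

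**Figure D2:**
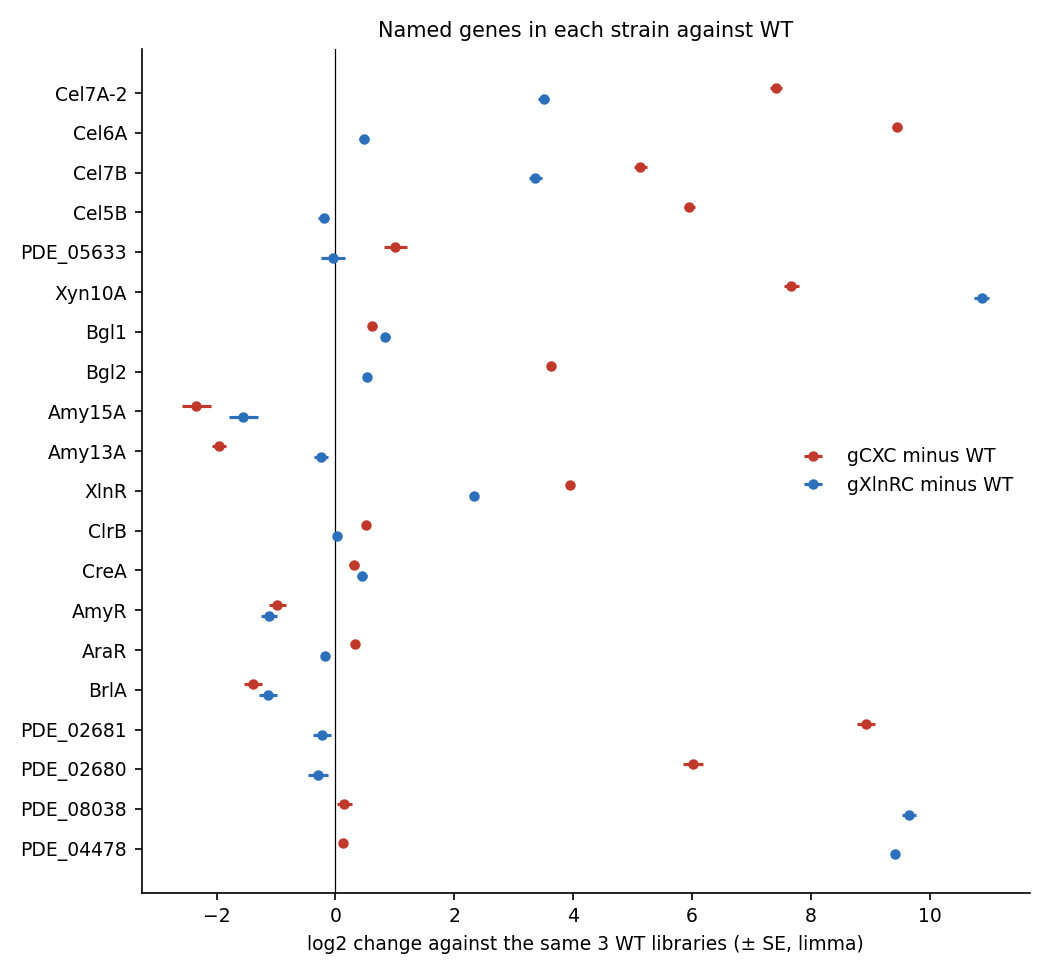
Log2 change of each named gene against WT in gCXC and in gXlnRC (points, with the standard error from limma as bars). Cel6A stands at 9.45 in gCXC and 0.48 in gXlnRC, and Xyn10A at 7.67 in gCXC and 10.87 in gXlnRC.

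The 4 tags described next were chosen as the most extreme log2 changes among called genes without a name. PDE_02681 had 747, 706 and 668 FPKM in gCXC, 0.378, 0 and 0.370 FPKM in gXlnRC, and 0.382, 0.710 and 0.289 FPKM in WT. In gXlnRC this was 0 to 7 reads per library, against 10157 to 13055 in gCXC, too few for a ratio. The log2 change was 9.16 ± 0.15 (SE, limma) and ran from 7.08 to 11.96 over the alternatives. PDE_02680, the tag before it, had 102, 98.3 and 90.7 FPKM in gCXC, 0.208, 0.104 and 0.393 FPKM in gXlnRC, and 0.894, 0.271 and 0.418 FPKM in WT. Its log2 change was 6.31 ± 0.17 (SE, limma), with a range of 4.28 to 8.67 over the alternatives, and rested on 2 to 9 reads per gXlnRC library. Both genes entered the test only through their gCXC values, so their changes are given as a description, without a p.

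The tag after PDE_02681 differed the other way, at 120, 99.9 and 109 FPKM in gCXC, 2019, 1780 and 2002 FPKM in gXlnRC, and 35.0, 26.7 and 30.0 FPKM in WT. Its log2 change was -4.13 ± 0.11 (SE, limma, adjusted p = 1.8e-11). This tag was picked out for its place beside PDE_02681 after the values were seen. Adjacent tags were thus highest in different strains, and the 3 groups did not overlap at the tag after PDE_02681, whereas gXlnRC and WT overlapped at PDE_02681 and PDE_02680.

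PDE_04478 was the most abundant gene of gXlnRC by mean FPKM. It had 73.5, 75.7 and 73.7 FPKM in gCXC, 45592, 46147 and 48538 FPKM in gXlnRC, and 70.0, 65.8 and 67.9 FPKM in WT. It took 0.00473% of the reads in gCXC and 2.97% in gXlnRC, and its log2 change was -9.28 ± 0.05 (SE, limma). PDE_08038 had 2.01, 2.54 and 2.01 FPKM in gCXC, 2233, 2238 and 2407 FPKM in gXlnRC, and 1.95, 1.798 and 1.83 FPKM in WT. Its log2 change was -9.49 ± 0.12 (SE, limma), and gCXC did not differ from WT by the test (adjusted p = 0.301, limma). PDE_04478 and PDE_08038 were chosen among called genes, so no p between the strains is given for them.

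PDE_08038 lay in the longest run of consecutive tags called at least 2-fold lower in gCXC, 7 tags. The 4 tags before it were also among the 10 lowest log2 changes. They had means of 0.986, 90.1, 14.1 and 2.94 FPKM in gCXC, in tag order, and 95.6, 3688, 567 and 796 FPKM in gXlnRC. The 2 tags after it were lower by -2.18 ± 0.17 and -1.92 ± 0.15 (log2 change ± SE, limma). That consecutive tags are neighbours on a chromosome is not stated in the sources used here.

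**Figure D3:**
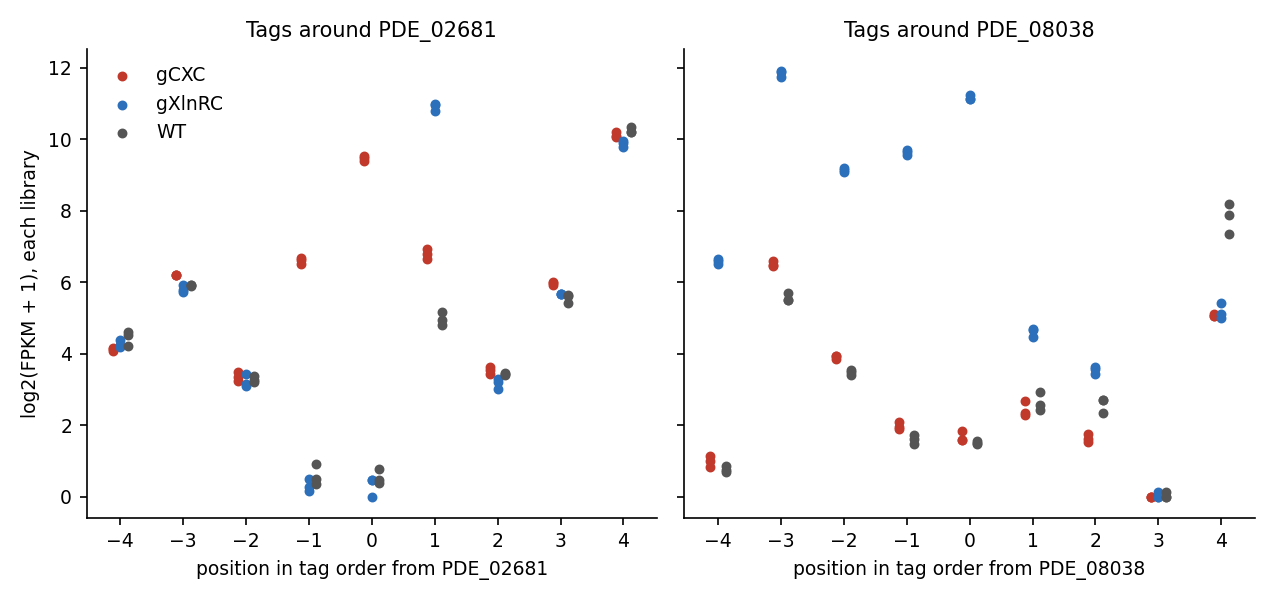
Level of each library, as log2(FPKM + 1), at the tags around PDE_02681 and PDE_08038, by position in tag order. Around PDE_02681, positions -1 and 0 are high in gCXC and position 1 is highest in gXlnRC, while around PDE_08038 positions -4 to 2 are highest in gXlnRC.

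The 10 highest log2 changes ran from 3.65 to 9.16 and included Cel6A, Cel5B, Cel7A-2, PDE_02681 and PDE_02680. The other 5 genes had means of 46.8 to 2435 FPKM in gCXC, 1.45 to 51.1 FPKM in gXlnRC and 2.72 to 47.5 FPKM in WT. One of them was the tag after Amy13A, with 47.1, 92.4 and 106 FPKM in gCXC, 1.37, 1.15 and 1.84 FPKM in gXlnRC, and 2.33, 5.32 and 96.5 FPKM in WT. Its strains did not overlap, but WT replicate 3 stood at the gCXC level. The log2 change between the strains was 5.01 ± 0.92 (SE, limma), given without a p as the gene was chosen among called genes. The fit shares the spread over all 12 libraries, so this SE also holds the spread of the WT libraries. The 10 lowest ran from -9.49 to -5.24, and their means were 0.129 to 97.7 FPKM in gCXC, 51.8 to 46758.9 FPKM in gXlnRC and 0.696 to 67.9 FPKM in WT. Among them, the gene with a mean of 0.129 FPKM in gCXC entered the test only through its gXlnRC values, so the filter set its direction. These 10 genes together held 0.0302% ± 0.000899 of the reads in gCXC and 5.03% ± 0.168 in gXlnRC (SD, n = 3).

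Over all genes, 5322 of 8898 (59.8%) were called, 3289 higher in gCXC (37.0%) and 2033 lower (22.8%). The lean toward higher genes depends on scaling: after median-of-ratios scaling 2564 genes were called higher and 2511 lower, and the median log2 change was 0.01 in place of 0.09. At least 2-fold differences ran the other way, with 321 genes higher in gCXC (3.61%) and 453 lower (5.09%), or 261 and 509 with median-of-ratios scaling. Of the 321 and 453 genes, 11 and 24 entered the test only through the strain where they were high, so the filter set their direction. Strong differences were also more often toward gXlnRC, with 49 genes at least 4-fold higher in gCXC and 119 lower, and 8 at least 16-fold higher and 25 lower. The 8 include PDE_02681 and PDE_02680, and the 25 include the gene with a mean of 0.129 FPKM in gCXC. The filter let these genes in through the strain where they were high. With a pseudocount of 5 the genes at least 2-fold lower numbered 297.

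**Figure D4:**
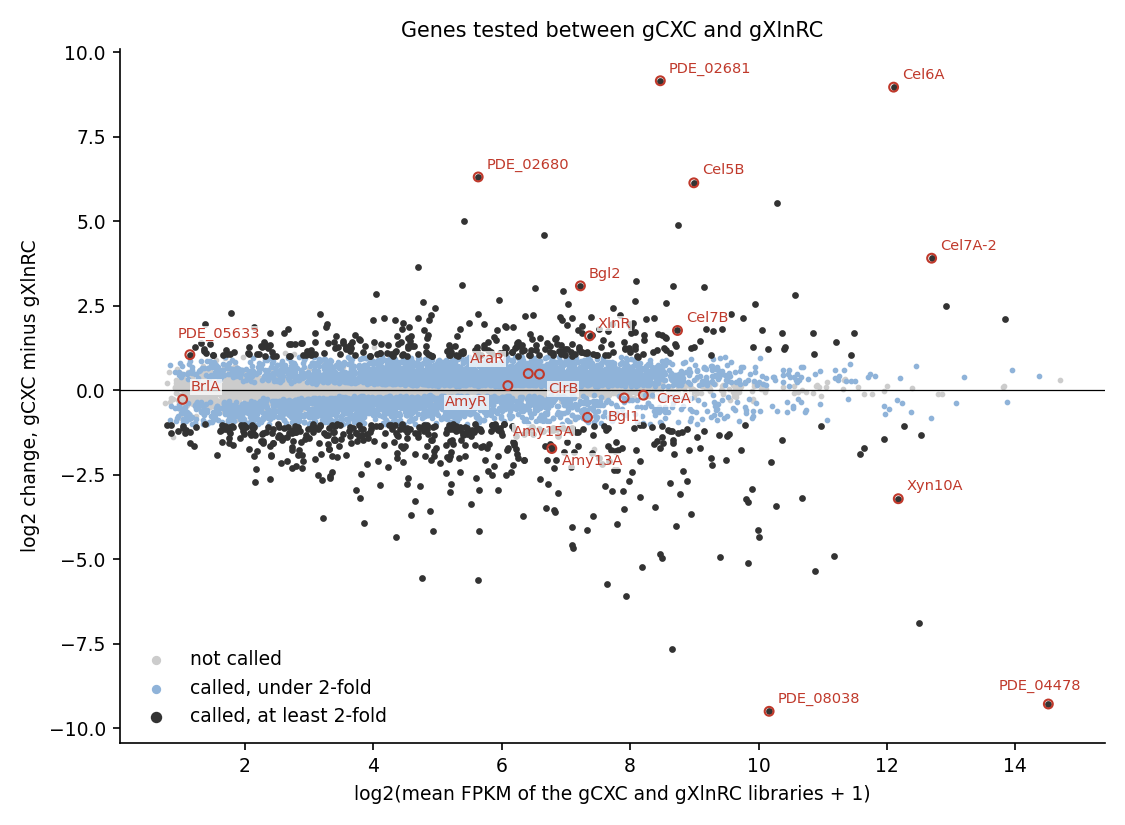
Log2 change (gCXC minus gXlnRC) of the 8898 tested genes against their mean level over both strains, coloured by call. Named genes are ringed; Cel6A and PDE_02681 lie near 9 and PDE_04478 and PDE_08038 below -9.

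The 321 genes higher in gCXC held 15.5%, 15.4% and 15.1% of the reads in gCXC, 3.49%, 3.75% and 3.49% in gXlnRC, and 9.95%, 9.39% and 9.23% in WT. The 453 genes lower in gCXC held 3.96%, 3.99% and 4.06% in gCXC, 19.1%, 20.1% and 19.2% in gXlnRC, and 6.74%, 6.98% and 7.37% in WT. For both lists the WT share lay between those of the strains. Since the lists were chosen on these libraries, the direction between the strains is given by the choice. The choice also favours a WT level between the strains, so the place of WT is not a separate result. The genes lower in gCXC had a median of 13.3 FPKM in gCXC, 47.9 in gXlnRC and 22.9 in WT, and the genes higher in gCXC 81.8, 28.2 and 47.4 FPKM in the same order of groups.

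Near on and off differences were few by the cut used here. Means of at least 10 FPKM in gCXC and under 1 in gXlnRC were found for 2 genes, PDE_02681 and PDE_02680, and the reverse for 5 genes, with means of up to 95.6 FPKM in gXlnRC. PDE_08038, with means of 2.19 FPKM in gCXC and 2292.5 FPKM in gXlnRC, fell outside this cut. The filter let in 25 genes through gCXC libraries alone and 65 through gXlnRC libraries alone.

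At least 2-fold differences were more frequent among genes with a mean over both strains of 100 FPKM or more. They made up 8.04% of 1319 genes with a mean under 5 FPKM and 7.56% of 2328 with 5 to 20 FPKM. The share was 6.85% of 3545 genes with 20 to 100 FPKM and 13.4% of 1392 with 100 to 500 FPKM. It was 19.7% of 314 genes with 500 FPKM or more. A gene high in only a single strain can enter a high FPKM range through its change. The pseudocount also shrinks changes of low genes. The share called in either direction was 38.9% under 5 FPKM and 76.6% at 100 to 500 FPKM. Whether level itself goes with larger differences was thus not tested. By recovered coding length, the median log2 change was 0.16 in the quintile of shortest genes (up to 582 nt) and -0.03 in that of the longest (2001 nt or more). The part of length in the gene calls was not tested.

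Genes with a large difference often had adjacent tags. Of the 321 genes at least 2-fold higher, 21.8% had another such gene at an adjacent tag, where 5.60% of the other tested genes lay beside one. For the 453 lower genes the shares were 27.8% and 7.52%, and runs of 3 or more tags numbered 4 among the higher and 12 among the lower genes. Beside the 16 genes of the fixed lists, 28 tags were tested and 7 were at least 2-fold different, 5 higher and 2 lower, which is 25% against 8.70% of all tested genes. Among them, the tag before ClrB had 75.02, 72.4 and 64.0 FPKM in gCXC, 16.2, 17.1 and 17.6 FPKM in gXlnRC, and 8.33, 8.72 and 10.3 FPKM in WT (log2 change 1.99 ± 0.10 SE, limma, adjusted p = 9.04e-09). The tag before Cel7B had 536, 492 and 535 FPKM in gCXC, 207, 248 and 230 FPKM in gXlnRC, and 38.6, 40.2 and 57.8 FPKM in WT (log2 change 1.19 ± 0.16 SE, limma, adjusted p = 3.96e-05). These 2 tags and the tag after Amy13A were singled out after their values were seen. Several of the 16 genes were themselves at least 2-fold different, so 8.70% is not a like background for the 25%. Tags beside ClrB, CreA, AraR and Bgl1 were among the 7, though these named genes differed less than 2-fold.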

How the data were processed

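mRNA libraries of mycelia were made with a stranded kit, per the labels' protocols. The authors deposited 1 table of FPKM values for 12 libraries. CASAVA 1.8, featureCounts 1.5.0-p1, HISAT2 2.0.0 and DESeq2 appear in the submitters' processing notes without a role. Build, annotation, strand setting and FPKM denominator were not given in the sources used here, so genes overlapping on opposite strands, and near-identical copies, could share reads.

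The model (limma 3.58.1, R 4.3.3) took log2(FPKM + 1) from the 12 libraries, with 4 group means (8 residual degrees of freedom, trended prior variance). Tests were two-sided. Genes with at least 1 FPKM in at least 3 of the 6 compared libraries were tested, without rescaling. No source states separate cultures beyond the word biological, so p-values measure the spread between these libraries.

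FPKM values were whole multiples of what 1 read is worth. Library totals, and coding lengths at 3 nt steps, were searched until every value lay within 0.1 of a whole read. All 9884 genes with a value above 0 received a length, and recovered reads came to 99.99% of each total. At a length 1 step longer, 26% of values lay that close. Read shares refer to these totals. Both steps were tested on simulated data.

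Named genes were those of lists for cellulases, xylanase, beta-glucosidases, amylases, regulators and spore formation, plus the 2 highest and 2 lowest log2 changes among called genes without a name, with separate libraries and a mean of at least 10 FPKM in either strain. The lists and the comparison were chosen with earlier results of these data known. The rule asked for names paired with tags by a source; as none was at hand, the names are recalled from published work on this fungus, and tag values had been seen when the lists were settled. Lists of other hemicellulases, sugar use and transporters held no tag whose name was certain. Runs of tags, abundance strata and coding length were examined after the values were seen. Alternatives covered scaling, pseudocounts of 0.1 and 5, filters, the 6 libraries alone, a replicate block, untrended variance, limma voom on recovered reads, and each library left out. Python 3.11.15 with numpy 2.4.6, pandas 2.3.3 and matplotlib 3.10.9 was used.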

Additional observations from a re-analysis of the deposited data

How the results depend on the processing

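Of 338 log2 changes of the 20 named genes under 17 alternatives, 331 kept direction and call, and the other 7 were those given for Bgl1 and CreA. The 102 counts of called genes stayed within 1.5 times the reported count except the 297 lower genes past 2-fold when the pseudocount was 5, which shrinks changes of low genes by construction. The median log2 change of 0.09 became 0.01 with median-of-ratios scaling, 0.06 with TPM scaling, 0.05 with quantile normalization, 0.07 with a pseudocount of 5, 0.07 without a filter and 0.11 with a filter at 5 FPKM. As shares of summed FPKM in place of reads, the higher genes held 13.2% in gCXC and 3.39% in gXlnRC, and the lower genes 3.05% and 18.05%. Leaving out 1 library gave 4772 to 4885 called genes. On recovered reads, limma voom called 5400 genes, 967 of them at least 2-fold.

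Same-numbered gCXC and gXlnRC libraries deviated together weakly at most, with correlations of -0.00, 0.08 and 0.09 across genes. Libraries of different numbers had -0.10 to 0.03. The numbers were not taken as pairs in the main fit. With the replicate block 5281 genes were called, 3272 higher and 2009 lower, with 322 and 455 at least 2-fold, and a median log2 change of 0.09.

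Ratios of genes with fewer than about 10 reads per library, such as PDE_02681 and PDE_02680 in gXlnRC, are limited by depth.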
